A study of Homo sapiens with 15 samples.

Results

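The 30 genes described here encode enzymes of nucleotide, serine and one-carbon synthesis, measured in 5 established human neuroblastoma lines. The genes were taken from a list of names, and each was read from its brightest probe set, by the mean of all 15 arrays. All 30 had such a probe set among 18244 genes, and 29 passed the filter on low values that left 12721 genes for testing. ALDH1L2 did not pass it. By their place in metabolism, 9 are enzymes of purine synthesis, 5 of pyrimidine synthesis and 3 of serine synthesis, and 6 belong to the folate cycle. Another 2 make PRPP (phosphoribosyl pyrophosphate), the activated ribose on which purines are built and to which the pyrimidine ring is joined. The remaining 5 supply deoxynucleotides.

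Total RNA was measured with 3 arrays for each of the lines KELLY, NGP, BE(2)-C, SH-SY5Y and SK-N-AS. All lines were untreated as far as the labels say, all were grown in the same serum-containing medium, and ERCC external RNA controls entered each sample at lysis. The series is about the transcription factor MYCN in neuroblastoma, a childhood tumour of the sympathetic nervous system. NGP, BE(2)-C and KELLY are known to carry an amplified MYCN gene and SK-N-AS and SH-SY5Y are known to lack it. This status is general knowledge of the lines and not in the labels. The 3 former are called the amplified lines and the other two the non-amplified lines below. Each line is 1 tumour's descendant, so a class of lines holds few independent samples, and nothing in the labels says whether the arrays of a line came from separate cultures. P-values over arrays then measure only the spread between these arrays, which may be technical.

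Cells build purines stepwise on PRPP, while the pyrimidine ring is made first and joined to PRPP afterwards. Ribonucleotide reductase and thymidylate synthase then turn ribonucleotides into the building blocks of DNA. Serine, made from a glycolytic intermediate by PHGDH, PSAT1 and PSPH, hands a carbon to folate through the SHMT enzymes, and the MTHFD enzymes carry that carbon as formate to purine and thymidylate synthesis. These pathways run high in dividing cells, and several of their genes are textbook targets of MYC family proteins.

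The deposited values are linear intensities. The median intensity of an array ran from 51.9 to 126, while the median of the ERCC controls was nearly level, at 8.85 to 9.12 on the log2 scale. Whether the arrays were scaled on these controls is not given in the sources used here, so a deposited difference between lines may already be one relative to them. Genes stood lower against the ERCC controls in some lines than in others. The gap of their medians on the log2 scale was -1.37 for SH-SY5Y, -1.22 for KELLY, -0.98 for NGP, -0.39 for BE(2)-C and -0.09 for SK-N-AS. With 1 spike-in per lysate, fewer cells and less RNA per cell cannot be told apart in such values. Calls are therefore given on the deposited scale and on the centred scale, where each array's median over the tested genes is subtracted on the log2 scale. Line values of some members are given on the deposited scale only. Arrays of a line correlated at 0.993 or more and arrays of different lines at 0.892 or less, and no pair was identical. MYCN was at least 9363 ± 163 in each amplified line, against 152 ± 30.2 in SH-SY5Y with 78.8 ± 6.30 in SK-N-AS (mean ± SD, n = 3 arrays throughout). MYC ran the other way, at 1788 ± 128 and 1746 ± 145 in the non-amplified lines and at most 81.0 ± 12.7 in the amplified ones.

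The lines were checked against markers of their labelled type. Of 7 noradrenergic neuroblastoma markers with a probe set, SK-N-AS was called lower than every other line for 4 on both scales. Among all genes tested 2.12% were so called on the deposited scale and 5.56% on centred arrays. The 4 were PHOX2A, ISL1, DBH and CHGA, and CHGA was below the filter in SK-N-AS. HAND2 (11583 ± 772) and GATA3 (1710.0 ± 89.7) were well measured in SK-N-AS. TH was not called lower in SK-N-AS than in every other line. The summed intensity of the 7 genes was 13634 to 15308 in SK-N-AS and 21120.5 to 40208 on the arrays of the other lines. HAND2 makes up most of the SK-N-AS sum, so that sum says little of the other markers there. Of 7 markers of other cell types, PTPRC (320.0 ± 24.6) and COL1A1 (659 ± 45.1) were called higher in SK-N-AS than in every other line. This was so on both scales, where 12.6% (deposited) and 5.61% (centred) of all genes tested were so called. The sum over all 7 was 1299 to 1363 in SK-N-AS and 172 to 442 elsewhere, and EPCAM, COL1A2 and ALB were below the filter in every line. The part of this difference in the SK-N-AS values below was not tested.

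As a group, the serine and folate enzymes lay higher in the amplified lines and the enzymes of deoxynucleotide supply did not. On the log2 scale, the mean of the 3 amplified lines minus the mean of the other two had a median of 1.06 over the 3 serine genes and 0.90 over the 5 tested folate genes. Among the serine genes PHGDH stood at 1.82, PSAT1 at 1.06 and PSPH at 0.11. The median was 0.49 over the 9 purine genes, 0.41 over the 2 PRPP genes, 0.14 over the 5 pyrimidine genes and -0.14 over the 5 deoxynucleotide genes. All 29 members together had a median of 0.49, beside 0.00 over all genes tested, and 23 of 29 were above 0. Centring moved each of these medians up by the same small step, to 0.94 for folate, 0.53 for all 29 members and 0.05 for all genes tested.

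These medians rest on unequal lines on the deposited scale. Without SH-SY5Y they fell to 0.36 for serine, 0.14 for folate and -0.24 for all members, beside -0.62 over all genes tested. Without SK-N-AS they were 1.75, 1.54 and 1.04, beside 0.60 over all genes tested, and without BE(2)-C the serine median was 0.61. On centred arrays, leaving out any 1 line gave 0.91 to 1.25 for serine and 0.83 to 1.15 for folate, beside -0.02 to 0.09 over all genes tested. BE(2)-C had the highest line mean for 20 of 29 members (33% of all genes tested), SK-N-AS for 6 (54.6% of all genes tested), NGP for CAD and CTPS1 (8.32%), and KELLY for MTHFD2 (2.7%). SH-SY5Y was the lowest line for 22 of 29 (56.4% of all genes tested). On centred arrays the highest lines were KELLY for 10 members, NGP for 9, BE(2)-C for 7, SH-SY5Y for 2 and SK-N-AS for 1, and the lowest were SK-N-AS for 10 and SH-SY5Y for 9. Among all genes tested the highest line on that scale was KELLY in 20.9%, NGP in 20.4%, BE(2)-C in 18.1%, SH-SY5Y in 17.4% and SK-N-AS in 23.3%, and the lowest was SK-N-AS in 32.7% and SH-SY5Y in 13.7%.

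**Figure D1:**
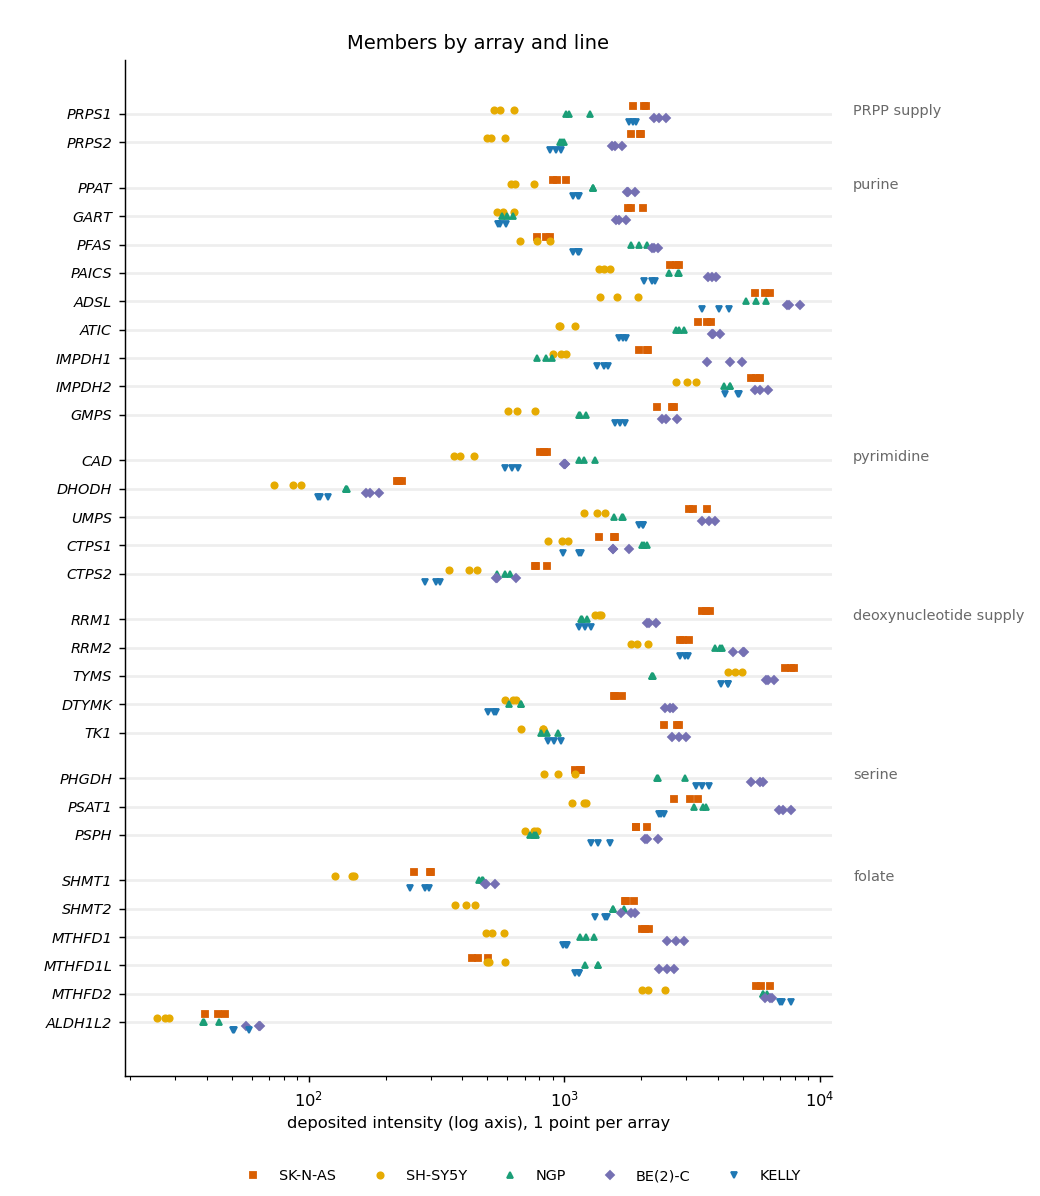
Deposited intensity (x axis, log scale) of the 30 members on the 15 arrays, 1 point per array, with lines by colour and marker and genes by branch. SH-SY5Y points lie leftmost for most genes, and for PHGDH and MTHFD1L both non-amplified lines lie left of all amplified arrays.

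On centred arrays, 13 of 29 members had every amplified array above every non-amplified array, against 6.09% of all genes tested. They were the purine enzymes PPAT, PFAS, PAICS and ADSL, CAD of pyrimidine synthesis, RRM2, the serine enzymes PHGDH and PSAT1, and all 5 tested folate enzymes (SHMT1, SHMT2, MTHFD1, MTHFD1L and MTHFD2). RRM1 alone had every amplified array below (5.62% of all genes tested). On the deposited scale the same held upward for 4 members, PPAT, PFAS, PHGDH and MTHFD1L (3.46% of all genes tested), and downward for none (1.23% of all genes tested). This order of arrays was examined after the values had been seen. It asks for no minimum difference, and without each single line the centred count was 14 to 18, where 8.89% to 25.3% of all genes tested met it. Without probe sets that can match related transcripts it was 8 of 24 members tested (ADSL, CAD, RRM2, PHGDH, PSAT1, SHMT1, MTHFD1L and MTHFD2), against 5.63% of the 11172 genes then tested.

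A stricter rule asked for a limma difference of at least 1 on the log2 scale, with a Benjamini-Hochberg adjusted p under 0.05, in all 6 contrasts of an amplified with a non-amplified line. By it PHGDH and MTHFD1L were higher in the amplified lines on the deposited scale, 2 of 29 against 0.684% of all genes tested, and no member was lower (0.346% of all genes tested). On centred arrays no member met it in either direction (0.558% of all genes tested each way). There the weakest of the 6 differences was 0.88 for PHGDH and 0.78 for MTHFD1L, each with an adjusted p of at most 4.4e-08 by limma.

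Calls by single line were few. To mark a line, a gene had to pass the same thresholds, in 1 direction, against each of the 4 other lines. On the deposited scale 4 members marked SH-SY5Y as low (3.95% of all genes tested) and 2 marked BE(2)-C as high (3.46%), and on centred arrays 3 marked SK-N-AS as low (5.56%). In no other line or direction did a member mark a line. Among all genes tested, the deposited shares there were 12.6% high and 2.12% low for SK-N-AS, 0.307% high for SH-SY5Y, 1.67% high and 1.15% low for NGP, 0.574% low for BE(2)-C, and 0.472% high and 1.74% low for KELLY. The centred shares were 5.61% high for SK-N-AS, 0.943% high and 0.778% low for SH-SY5Y, 1.86% high and 1.35% low for NGP, 1.11% high and 1.41% low for BE(2)-C, and 1.06% high and 0.912% low for KELLY.

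A last test took the 5 line means as the replicates, 3 against 2. With limma and Benjamini-Hochberg adjustment no member passed on either scale, where 0.197% of all genes tested passed upward and 0.134% downward on the deposited scale and 0% each way on the centred one. The smallest adjusted p among members was 0.764 on the deposited and 0.747 on the centred scale. At an unadjusted p under 0.05, PHGDH stood alone on the deposited scale, where 2.41% of all genes tested lay below it upward and 2.66% downward. On the centred scale 8 members did so, all upward (PFAS, ADSL, PHGDH, PSAT1, SHMT1, SHMT2, MTHFD1L and MTHFD2), beside 3.18% of all genes tested upward and 3% downward. The differences between classes below therefore describe these 5 lines.

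**Figure D2:**
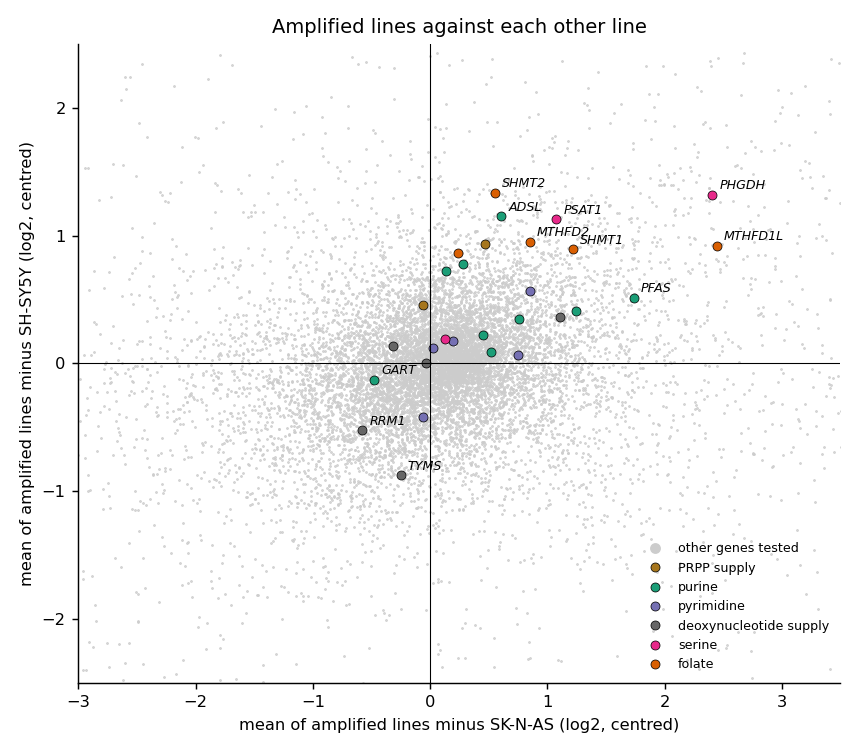
Mean of the 3 amplified lines minus SK-N-AS (x axis) and minus SH-SY5Y (y axis), both log2 on centred arrays, 1 point per gene, with members coloured by branch over the other genes tested in grey (575 genes lie outside the axes). All serine and folate members lie above 0 on both axes, with PHGDH and MTHFD1L farthest right, and GART, CTPS2, RRM1 and TYMS lie below 0 on both.

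Serine synthesis began with the member that had the largest mean difference between the classes, 1.82 on the log2 scale. PHGDH, the first and committing enzyme of the branch, was measured at 1154, 1098 and 1161 on the SK-N-AS arrays and at 948, 833 and 1104 on those of SH-SY5Y. It reached 2309, 2959 and 2321 for NGP, 5989, 5854 and 5366 for BE(2)-C and 3283, 3449 and 3670.0 for KELLY. The lowest amplified array, of NGP, was above the highest non-amplified array, of SK-N-AS, and BE(2)-C lay above all others. The 6 differences ran from 1.14 to 2.58 on the log2 scale (adjusted p at most 5.14e-11 by limma). On centred arrays the line means were 1.28 ± 0.04 for SK-N-AS, 2.36 ± 0.15 for SH-SY5Y, 3.24 ± 0.16 for NGP, 3.81 ± 0.05 for BE(2)-C and 4.0 ± 0.04 for KELLY (log2 above the array median). SK-N-AS was then lower than each other line by 1.08 or more (adjusted p at most 4.51e-10 by limma), and SH-SY5Y held a middle place. PHGDH has 1 probe set on the array, so this order could not be compared with that of another.

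PSAT1, the transaminase after PHGDH, followed another order. It was highest in BE(2)-C, at 7686, 7154 and 6945, and lowest in SH-SY5Y, at 1076, 1192 and 1212. Between them lay NGP with 3218, 3602 and 3493, SK-N-AS with 2698, 3117 and 3334 and KELLY with 2446, 2394 and 2353. SK-N-AS was thus above KELLY on every array, and the classes overlapped on the deposited scale. BE(2)-C was higher than each other line by 1.08 to 2.65 on the log2 scale (adjusted p at most 5.54e-12 by limma), and SH-SY5Y lower than each by 1.05 to 2.65 (adjusted p at most 2.16e-11). The smallest SH-SY5Y difference was -0.98 with equal ERCC medians and -0.995 without replicate 1 of SH-SY5Y, which ended that call. On centred arrays the classes did not overlap, with 2.70 ± 0.13 for SK-N-AS and 2.64 ± 0.14 for SH-SY5Y against 3.47 ± 0.06 for KELLY, 3.69 ± 0.09 for NGP and 4.15 ± 0.03 for BE(2)-C. All 7 other PSAT1 probe sets also had BE(2)-C highest and SH-SY5Y lowest on both scales.

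PSPH, the phosphatase that releases serine, did not follow the other 2 enzymes of its branch. Its means were 1974 ± 109.8 for SK-N-AS, 746 ± 41.3 for SH-SY5Y, 757 ± 21.5 for NGP, 2166 ± 138 for BE(2)-C and 1384 ± 119.5 for KELLY. In this probe set NGP sat with SH-SY5Y at the bottom, and on centred arrays NGP was the lowest line. Its difference between the classes was 0.11 ± 0.87 (SE over line means) on the log2 scale. The other 2 PSPH probe sets disagreed on this, with KELLY the lowest line on centred arrays in both. In one of them KELLY read 334 ± 5.73 and NGP 898 ± 56.7, and in the other KELLY read 11.3 ± 4.59 and NGP 164 ± 10.9. Their differences between the classes were -0.05 and -1.27 on the log2 scale, opposite in sign to that of the probe set used.

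The promoter windows of the first 2 serine genes are shown because both lay higher in every amplified array than in every other array after centring. Each window holds 250 bases before and 50 after the RefSeq start site (GRCh38.p14, plus strand), at chr1:119711684-119711983 for PHGDH and chr9:78296875-78297174 for PSAT1, and capitals mark CCAAT.
PHGDH: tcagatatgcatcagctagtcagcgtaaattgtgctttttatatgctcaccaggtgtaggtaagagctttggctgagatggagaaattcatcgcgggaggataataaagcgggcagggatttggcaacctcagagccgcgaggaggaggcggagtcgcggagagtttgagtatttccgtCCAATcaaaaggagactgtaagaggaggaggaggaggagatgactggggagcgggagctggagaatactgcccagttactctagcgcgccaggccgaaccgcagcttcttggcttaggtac
PSAT1: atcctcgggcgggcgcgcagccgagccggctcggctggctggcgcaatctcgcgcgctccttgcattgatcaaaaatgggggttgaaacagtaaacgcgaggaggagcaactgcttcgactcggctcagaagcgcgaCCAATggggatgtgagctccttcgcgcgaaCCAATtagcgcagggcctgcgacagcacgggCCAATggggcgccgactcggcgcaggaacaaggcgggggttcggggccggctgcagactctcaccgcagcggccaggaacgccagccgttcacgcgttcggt
PHGDH has CCAAT at 1 place in its window and PSAT1 has CCAAT at 3 places. Neither window holds the E-box CACGTG, the letters that MYC family proteins are known to bind.

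In the probe sets used, the tested folate enzymes all lay higher in the amplified lines on centred arrays, though not with the same low line. In another probe set each of SHMT1, SHMT2 and MTHFD1L, the smallest centred difference of an amplified from a non-amplified line was -0.05, -0.04 and -0.07. It was above 0 in their remaining probe sets. MTHFD1L, the mitochondrial enzyme that releases formate, was low in both non-amplified lines. It read 436, 505 and 459 for SK-N-AS and 509, 501 and 587 for SH-SY5Y, then 1103, 1145 and 1138 for KELLY, 1211, 1356 and 1359 for NGP and 2699.8, 2514 and 2358 for BE(2)-C. Every amplified array was above every non-amplified one, and the 6 differences ran from 1.09 to 2.43 on the log2 scale (adjusted p at most 2.05e-11 by limma). On centred arrays SK-N-AS stood apart at -0.01 ± 0.14, below each other line by 1.52 to 2.63 (adjusted p at most 2.67e-12 by limma). SH-SY5Y stood at 1.52 ± 0.10 and the amplified lines between 2.30 ± 0.12 and 2.63 ± 0.06.

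The probe sets of MTHFD1L did not all show this. The one used can match related transcripts, and in the other 3 the weakest of the 6 deposited differences was 0.37, 0.35 and -0.55, so none of these met the rule. In the last of them SK-N-AS was the highest line, at 301 ± 8.73, beside 249 ± 18.1 in BE(2)-C and 91.1 ± 7.46 in SH-SY5Y. On centred arrays SH-SY5Y was the lowest line in that probe set, and SK-N-AS in the others. Those others read 558 ± 10.2 and 515 ± 44.2 in SK-N-AS, above SH-SY5Y with 274 ± 16.7 and 250 ± 27.2. The size of the centred gap between SK-N-AS and SH-SY5Y therefore rests on the probe set used.

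MTHFD2, the mitochondrial enzyme just before MTHFD1L, and SHMT2, which moves the carbon from serine in the mitochondrion, were low in SH-SY5Y instead. MTHFD2 was measured at 2011, 2121 and 2471 for SH-SY5Y and at 5873, 5620.2 and 6359 for SK-N-AS. It stood at 6009.5, 6204 and 6007 for NGP, 6519, 6094 and 6401 for BE(2)-C and 6992, 7118 and 7698 for KELLY. SK-N-AS, NGP and BE(2)-C overlapped, and SH-SY5Y was below every other line by 1.44 to 1.73 on the log2 scale (adjusted p at most 9.33e-15 by limma). SHMT2 read 412, 373 and 446 for SH-SY5Y against 1733, 1749 and 1871 for SK-N-AS, 1555, 1719 and 1554 for NGP, 1884, 1669 and 1820.3 for BE(2)-C and 1321, 1476 and 1447 for KELLY. SH-SY5Y was lower than each other line by 1.79 to 2.13 (adjusted p at most 7.35e-16 by limma), and no array of the remaining lines was outside 1321 to 1884. On centred arrays SH-SY5Y was still the lowest mean for both genes, and SK-N-AS came next, but neither gene met the rule. The difference between these lines was -0.79 for SHMT2 (adjusted p = 4.46e-10 by limma) and only -0.10 for MTHFD2 (adjusted p = 0.118 by limma). For MTHFD2 the centred means were 3.56 ± 0.15 for SH-SY5Y and 3.67 ± 0.03 for SK-N-AS, beside 3.96 ± 0.05 for BE(2)-C, 4.51 ± 0.04 for NGP and 5.07 ± 0.04 for KELLY. For SHMT2 they were 1.14 ± 0.07 and 1.93 ± 0.02, beside 2.13 ± 0.08, 2.60 ± 0.05 and 2.71 ± 0.06 in the same lines. SH-SY5Y was also the lowest line on both scales in the other 3 probe sets of SHMT2 and the other 4 of MTHFD2.

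The cytosolic folate enzymes marked no line. SHMT1, the cytosolic form of SHMT2, had means of 286 ± 24.3 for SK-N-AS, 141 ± 12.9 for SH-SY5Y, 475 ± 9.28 for NGP, 507 ± 25.8 for BE(2)-C and 276 ± 23.6 for KELLY. On centred arrays it was lowest in SK-N-AS (-0.71 ± 0.10) and highest in NGP (0.84 ± 0.03). MTHFD1, the 3-function cytosolic enzyme, had means of 2080.3 ± 68.4, 534 ± 44.8, 1224 ± 77.6, 2733 ± 218 and 1007 ± 18.8 in the same order of lines. Its centred arrays did not overlap between the classes, but the smallest difference, of NGP from SK-N-AS, was 0.05 on the log2 scale. ALDH1L2, the mitochondrial enzyme that oxidises formyl-folate to carbon dioxide, was dim everywhere, from 27.1 ± 1.46 for SH-SY5Y to 61.8 ± 4.29 for BE(2)-C, and was not tested.

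**Figure D3:**
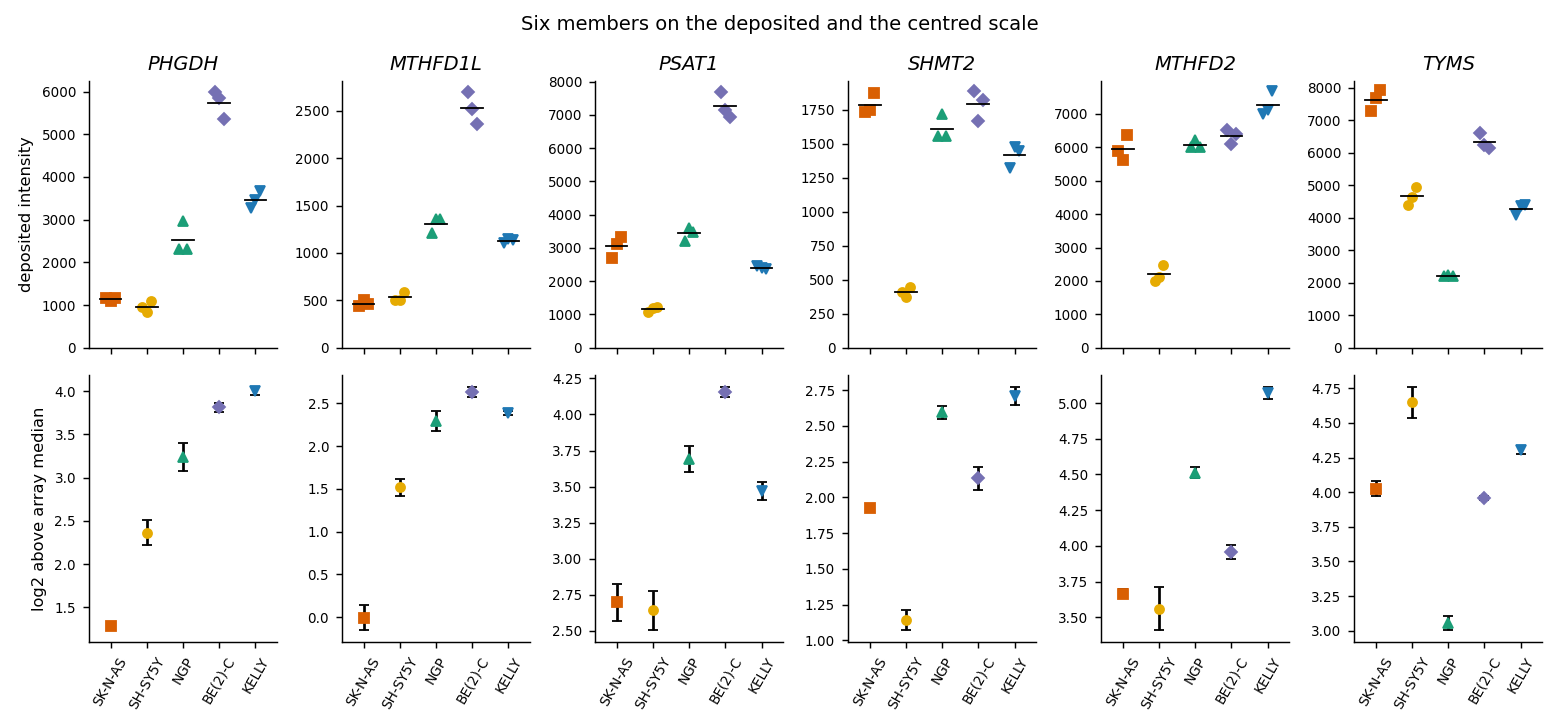
Upper row, deposited intensity of 6 members by line, with 1 point per array and a bar at the line mean (y axis from 0). Lower row, centred log2 mean of each line with SD over 3 arrays: PHGDH and MTHFD1L are lowest in SK-N-AS there, PSAT1, SHMT2 and MTHFD2 in SH-SY5Y, and TYMS in NGP.

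Purine synthesis had members that marked SK-N-AS, SH-SY5Y or BE(2)-C. PFAS, which adds an amide nitrogen in the middle of the pathway, was measured at 883, 781 and 846 for SK-N-AS and 784, 672 and 878 for SH-SY5Y, and these lines overlapped. It read 1086, 1133 and 1138 for KELLY, 1956, 2104 and 1823 for NGP and 2326, 2255 and 2199.5 for BE(2)-C, all above them. On centred arrays SK-N-AS was lower than each other line by 1.22 to 2.04 on the log2 scale (adjusted p at most 4.31e-12 by limma), at 0.84 ± 0.09 beside 2.06 ± 0.13 for SH-SY5Y, while the amplified lines ran from 2.37 ± 0.02 to 2.88 ± 0.05. The probe set used can match related transcripts. In the other 3, SK-N-AS was also lowest on centred arrays, but KELLY lay below SK-N-AS on the deposited scale, by -0.16, -0.24 and -0.10 on the log2 scale, so the deposited order rests on 1 probe set. PFAS was 1 of 3 members that marked SK-N-AS as low on centred arrays, with PHGDH and MTHFD1L. No member marked SK-N-AS on the deposited scale in either direction.

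ADSL, the lyase that acts at 2 steps of the pathway, was 1 of 4 members lower in SH-SY5Y than in each other line on the deposited scale, with PSAT1, SHMT2 and MTHFD2. Its arrays read 1607, 1385 and 1938 for SH-SY5Y, 3472, 4419 and 4037 for KELLY, 6184, 5652 and 5143 for NGP, 6366, 5564 and 6100.2 for SK-N-AS and 8353, 7453 and 7587 for BE(2)-C. SH-SY5Y did not overlap any other line, and the 4 differences were 1.28 to 2.26 on the log2 scale (adjusted p at most 6.23e-11 by limma). With the mean of its 2 probe sets, 1 of them below the filter, the smallest difference was -0.75 and the call was lost. On centred arrays ADSL no longer met the fold, at 3.13 ± 0.18 for SH-SY5Y and 3.68 ± 0.09 for SK-N-AS, while the amplified lines ran from 4.19 ± 0.16 to 4.41 ± 0.11.

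IMPDH1, 1 of the 2 enzymes at the branch to guanine nucleotides, was high in BE(2)-C with 4979, 4472 and 3623. It read 1968, 2128 and 2109.7 for SK-N-AS, 1341, 1480.4 and 1428 for KELLY, 1014, 902 and 972 for SH-SY5Y and 847, 897 and 782 for NGP. BE(2)-C did not overlap any other line and exceeded each by 1.06 to 2.36 on the log2 scale (adjusted p at most 1.4e-10 by limma). IMPDH1 and PSAT1 were the 2 of 29 members that marked BE(2)-C as high, and the smallest difference of IMPDH1 was 0.96 without the highest BE(2)-C array (replicate 1), 0.96 with equal ERCC medians and 0.88 with the mean of its probe sets, each of which ended the call. Neither gene marked BE(2)-C on centred arrays. IMPDH2, the paralog of IMPDH1 and the form raised in dividing cells, was called in none of the 10 pairs of lines, with means from 3009 ± 269 for SH-SY5Y to 5887 ± 354 for BE(2)-C.

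PPAT, which commits PRPP to purine synthesis, and PAICS, which carries 2 later steps, had the amplified lines above both other lines on centred arrays, and GART did not. PPAT was measured at 641, 622 and 764 for SH-SY5Y and 937, 904 and 1019 for SK-N-AS, and at 1086, 1145 and 1130.1 for KELLY, 1293, 1302 and 1299 for NGP and 1889.9, 1771 and 1764 for BE(2)-C. Every amplified array was above every non-amplified one. PAICS read 1369, 1505 and 1430.4 for SH-SY5Y, 2195, 2257 and 2052 for KELLY, 2603, 2812 and 2736 for SK-N-AS, 2567, 2788 and 2803 for NGP and 3938, 3779.7 and 3644 for BE(2)-C, and its classes overlapped. On centred arrays both were lowest in SK-N-AS, second lowest in SH-SY5Y and higher in each amplified line. The centred means of PPAT were 1.02 ± 0.03 for SK-N-AS, 1.86 ± 0.12 for SH-SY5Y and 2.15 ± 0.02 to 2.37 ± 0.03 for the amplified lines. Those of PAICS were 2.54 ± 0.09, 2.95 ± 0.14 and 3.22 ± 0.02 to 3.35 ± 0.10. The other probe set of each gene put SH-SY5Y lowest on centred arrays, and in that of PPAT the smallest deposited difference was 0.03.

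PPAT and PAICS lie head to head on chromosome 4, and their windows are shown because they share sequence. The PPAT window is chr4:56435566-56435865 on the minus strand and that of PAICS chr4:56435502-56435801 on the plus strand (RefSeq, GRCh38.p14, each from 250 bases before to 50 after a start site). They overlap by 236 bases, and the E-box in capitals is the same 6 bases of the genome in both.
PPAT: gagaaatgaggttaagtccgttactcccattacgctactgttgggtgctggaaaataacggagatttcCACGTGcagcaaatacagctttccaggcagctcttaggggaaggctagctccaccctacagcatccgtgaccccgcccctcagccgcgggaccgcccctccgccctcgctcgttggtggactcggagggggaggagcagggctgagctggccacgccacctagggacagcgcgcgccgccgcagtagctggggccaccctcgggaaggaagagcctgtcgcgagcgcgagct
PAICS: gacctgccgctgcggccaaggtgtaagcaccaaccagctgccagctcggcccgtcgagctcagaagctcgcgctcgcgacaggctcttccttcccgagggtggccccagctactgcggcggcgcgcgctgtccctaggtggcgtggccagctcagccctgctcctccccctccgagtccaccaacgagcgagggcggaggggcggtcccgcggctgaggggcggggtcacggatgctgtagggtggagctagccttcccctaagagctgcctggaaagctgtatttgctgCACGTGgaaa
This E-box starts 182 bases before the PPAT start site and 40 bases after the PAICS start site of the window shown. PAICS has 3 windows, and only the one shown holds an E-box.

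GART, the 3-function enzyme whose steps fall between those of PPAT and PAICS, ran differently, with 1882 ± 133 for SK-N-AS and 1655 ± 75.9 for BE(2)-C against 587 ± 47.5 for SH-SY5Y, 599 ± 29.6 for NGP and 568 ± 21.4 for KELLY. It was the 1 purine gene with a lower mean in the amplified lines, with a difference of -0.35 ± 0.89 (SE) on the log2 scale and -0.30 ± 0.35 after centring, though 1 of its other 4 probe sets had a difference of 0.54. ATIC, which closes the purine ring, had means from 1007 ± 81.5 for SH-SY5Y to 3889 ± 157 for BE(2)-C. GMPS, which makes GMP after the IMPDH step, ran from 675 ± 85.9 for SH-SY5Y to 2565 ± 184 for BE(2)-C, with SK-N-AS at 2543 ± 209. After centring, SH-SY5Y stayed lowest for ATIC (2.44 ± 0.10) and GMPS (1.85 ± 0.13). The highest line was then NGP for ATIC (3.41 ± 0.01) and KELLY for GMPS (2.93 ± 0.03).

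**Figure D4:**
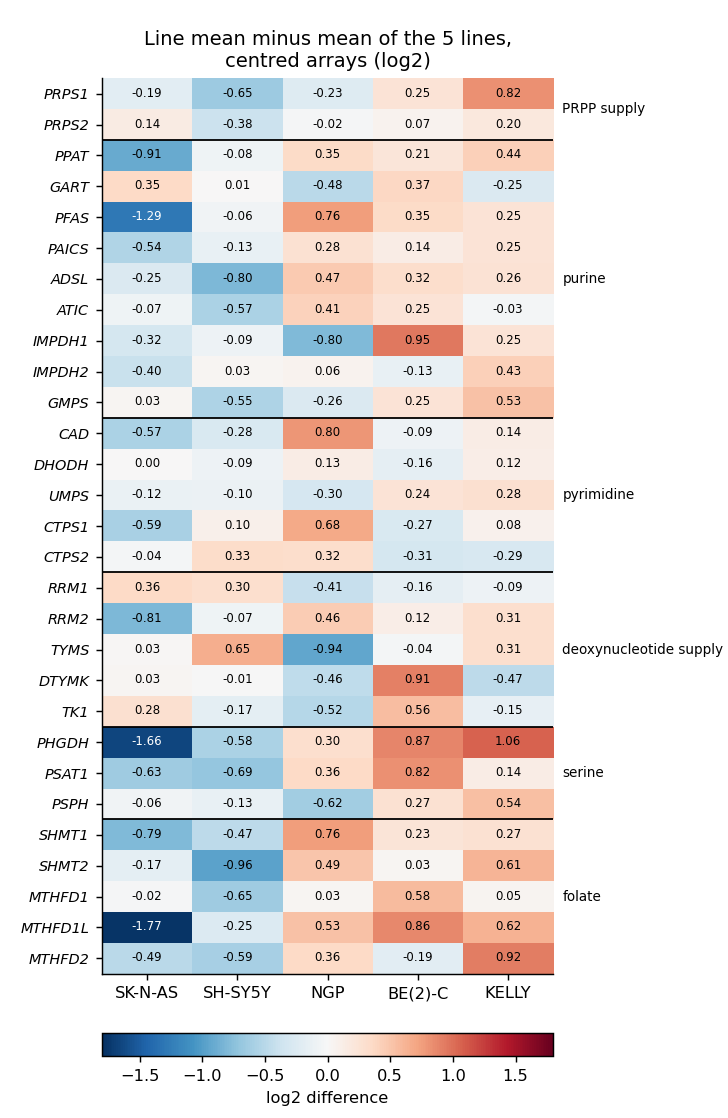
Centred log2 mean of each tested member in each line minus its mean over the 5 lines, by branch (red higher, blue lower, in log2). The SK-N-AS and SH-SY5Y cells are both below 0 for all serine genes and the 5 tested folate genes (MTHFD1 in SK-N-AS only by -0.02). The same holds for PRPS1, CAD, UMPS and the purine genes PPAT, PFAS, PAICS, ADSL, ATIC and IMPDH1. Among deoxynucleotide genes it holds for RRM2 alone, with TYMS lowest in NGP (-0.94).

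Pyrimidine synthesis had no member that marked a line or separated the classes. Its widest ranges on the deposited scale were those of CAD and UMPS, the enzymes of the first and last part of the pathway. CAD, which carries the first 3 activities on 1 chain, read 389.9, 371 and 444 for SH-SY5Y, 586, 625 and 660.0 for KELLY, 801, 854 and 834 for SK-N-AS, 1009, 1001 and 1007 for BE(2)-C and 1195, 1314 and 1139.6 for NGP. No pair of lines overlapped, and SK-N-AS lay above KELLY, so the classes did overlap. On centred arrays CAD was lowest in SK-N-AS (0.83 ± 0.08) and SH-SY5Y (1.11 ± 0.09) and highest in NGP (2.19 ± 0.05). UMPS, which joins the ring to PRPP, read 1443, 1346 and 1197 for SH-SY5Y, 1683, 1691 and 1572 for NGP, 1955, 2038 and 2031 for KELLY, 3198, 3071 and 3619.9 for SK-N-AS and 3888, 3475 and 3692 for BE(2)-C. BE(2)-C and SK-N-AS overlapped at the top. On centred arrays UMPS was instead highest in KELLY (3.21 ± 0.02), with BE(2)-C at 3.18 ± 0.07, and lowest in NGP (2.63 ± 0.02).

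DHODH, the mitochondrial enzyme between CAD and UMPS, had the smallest range of all members on centred arrays, 0.28 on the log2 scale. It was dim, from 84.4 ± 10.3 for SH-SY5Y to 227 ± 5.46 for SK-N-AS. CTPS1 and CTPS2, which convert UTP to CTP, had different orders. On the deposited scale CTPS1 was highest in NGP (2054 ± 47.6) and lowest in SH-SY5Y (959 ± 86.9). CTPS2 was highest in SK-N-AS (801 ± 50.3) and lowest in KELLY (309 ± 20.3). After centring, CTPS1 was still highest in NGP (2.95 ± 0.05) but lowest in SK-N-AS (1.68 ± 0.08). CTPS2 was then highest in SH-SY5Y (1.14 ± 0.12), with NGP close to it (1.13 ± 0.03), and lowest in BE(2)-C (0.50 ± 0.11). Some other CTPS1 probe sets had SK-N-AS as the highest deposited line, and another had NGP.

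The synthetases that make PRPP differed from one another in KELLY. PRPS1 read 1859, 1799.8 and 1908 for KELLY, 1039.8, 1266 and 1015 for NGP, 2491, 2344 and 2238 for BE(2)-C, 2054, 1858 and 2091 for SK-N-AS and 559, 531 and 634 for SH-SY5Y. PRPS2 read 877, 975 and 927 for KELLY, 994, 962 and 976 for NGP and 1681, 1585 and 1531 for BE(2)-C. It read 1997, 1819 and 1984 on SK-N-AS arrays and 516, 498 and 588 on SH-SY5Y arrays. SH-SY5Y was lowest for both without overlap, and KELLY was near SK-N-AS for PRPS1 but near NGP for PRPS2. On centred arrays PRPS1 was highest in KELLY (3.10 ± 0.04), beside 1.63 ± 0.09 to 2.53 ± 0.04 elsewhere, while PRPS2 stayed between 1.52 ± 0.09 and 2.10 ± 0.07.

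Deoxynucleotide supply had a median difference between the classes below 0 on both scales, but this direction rests on single lines. On the deposited scale the median was 0.63 without SK-N-AS, 0.16 without NGP and 0.12 without KELLY, and on centred arrays it was 0.15 without NGP and 0.0061 without SK-N-AS. RRM2, the regulated subunit of ribonucleotide reductase, and RRM1, its large subunit, went opposite ways on centred arrays. RRM2 had centred means of 2.65 ± 0.01 for SK-N-AS and 3.39 ± 0.13 for SH-SY5Y, while the amplified lines ran from 3.58 ± 0.06 to 3.92 ± 0.04. RRM1 had 2.93 ± 0.02 and 2.88 ± 0.10 in the non-amplified lines against 2.16 ± 0.06 to 2.48 ± 0.04. Neither order passed the fold of the rule. The 6 centred differences of RRM1 ran from -0.77 to -0.39 (adjusted p at most 4.52e-06 by limma), and in all 4 of its probe sets SK-N-AS was the highest and NGP the lowest line on both scales. On the deposited scale RRM1 read 3579 ± 123 for SK-N-AS, 2177 ± 94.0 for BE(2)-C and 1363 ± 38.6 for SH-SY5Y, and its classes overlapped there, as did those of RRM2.

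TYMS, which makes thymidylate and uses the folate carbon, was low in NGP. Its arrays read 2201, 2233 and 2208 for NGP against 4092, 4358 and 4377 for KELLY, 4385, 4647 and 4956 for SH-SY5Y, 6594, 6245 and 6148 for BE(2)-C and 7280.0, 7681 and 7914 for SK-N-AS. NGP overlapped no other line, and its smallest difference was from KELLY, at -0.95 on the log2 scale, so it did not mark the line. TYMS did mark NGP as low when the ERCC medians were set equal and with the mean of its probe sets, and on centred arrays it stood at 3.06 ± 0.05 for NGP and between 3.96 ± 0.01 and 4.65 ± 0.11 elsewhere.

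On the deposited scale the kinases of thymidine and thymidylate were both high in BE(2)-C and SK-N-AS and low in the remaining lines. DTYMK, which phosphorylates thymidylate, read 2676, 2595 and 2475 for BE(2)-C and 1572, 1582 and 1685 for SK-N-AS, then 676, 677 and 609.9 for NGP, 649.8, 584 and 629 for SH-SY5Y and 505, 529 and 540.4 for KELLY. TK1, which salvages thymidine, read 2987, 2632 and 2822 for BE(2)-C, 2803, 2466 and 2759.5 for SK-N-AS, 865, 909 and 974 for KELLY, 859.5, 942 and 814 for NGP and 826, 679 and 823 for SH-SY5Y. Neither gene split the lines by class. On centred arrays DTYMK was high in BE(2)-C alone (2.66 ± 0.02), with SK-N-AS (1.78 ± 0.02) near SH-SY5Y (1.74 ± 0.03), and lowest in KELLY (1.28 ± 0.02). TK1 was still highest in BE(2)-C (2.79 ± 0.07) and SK-N-AS (2.51 ± 0.08) there, beside 1.71 ± 0.05 to 2.08 ± 0.05 in the remaining lines.

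The E-box was found in the windows of 6 of the 25 members with a RefSeq promoter (PPAT, PAICS, ATIC, DHODH, MTHFD1 and MTHFD1L), or 24%. It was in 12.6% of 10408 genes tested and 8.77% of all 27305 genes in the table, and its letters read alike on both strands. The E-box of PPAT and that of PAICS are the same 6 bases of the genome, counted once for each gene. CCAAT was in 14 members, or 56%, against 43.1% of genes tested. The ATF4-like letters TGATGNAA were in MTHFD1L alone (4% against 2.82%), and the E2F letters TTTGGCGC or TTTCGCGC in GART alone (4% against 2.41%). All letters were searched on both strands. A gene with several start sites had several windows. MTHFD1L is shown because 3 of its 4 windows, which overlap, hold the same E-box and ATF4-like letters, in capitals in the window at chr6:150866236-150866535 (RefSeq, GRCh38.p14, plus strand).
MTHFD1L: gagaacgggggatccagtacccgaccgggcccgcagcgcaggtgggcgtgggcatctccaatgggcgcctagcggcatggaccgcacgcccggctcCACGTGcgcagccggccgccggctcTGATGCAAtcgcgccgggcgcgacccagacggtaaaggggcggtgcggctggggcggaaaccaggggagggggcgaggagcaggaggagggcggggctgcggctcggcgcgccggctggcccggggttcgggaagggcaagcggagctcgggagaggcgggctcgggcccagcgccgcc

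Most other genes of the pathways marked no line. Of 22 tested genes of salvage and nucleotide handling, none separated the classes. On the deposited scale 5 of them marked SK-N-AS as high, against 12.6% of all genes tested. NT5E, the surface enzyme that makes adenosine from AMP, stood at 829 ± 12.3 in SK-N-AS, 259 ± 24.9 in BE(2)-C and 12.6 ± 1.73 to 19.0 ± 2.42 elsewhere. DCTD, the deaminase of dCMP, stood at 6960.5 ± 572 in SK-N-AS against 2564 ± 181 or less elsewhere. NT5E and DCTD marked SK-N-AS as high on centred arrays too (5.61% of all genes tested). DPYD, which degrades pyrimidines, was low in KELLY on both scales, at 59.6 ± 6.79 against 244 ± 23.6 or more. ADA, the deaminase of adenosine, was low in SH-SY5Y on the deposited scale, at 125 ± 13.6.

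Of 15 tested genes of the folate cycle and methionine synthesis, MTRR, which reactivates methionine synthase, was low in SH-SY5Y (148 ± 11.5 against 408 ± 6.93 or more), and MAT2B was low in KELLY (832 ± 7.41 against 1972 ± 168 or more). Both calls held on the deposited scale only. Of 13 tested genes of serine and glycine supply, 5 marked SH-SY5Y as low on the deposited scale, against 3.95% of all genes tested. They were SLC1A5, SLC6A9, CTH, ATF4 and ASNS. SLC6A9, a glycine transporter, and ATF4, the transcription factor of the amino acid response, did so on centred arrays as well (0.778% of all genes tested). ATF4 stood at 2423 ± 167 in SH-SY5Y against 7007 ± 308 or more, and SLC6A9 at 43.5 ± 4.66 against 169 ± 12.2 or more. SH-SY5Y was also the lowest line for 22 of 29 members on the deposited scale (56.4% of all genes tested). On centred arrays it was the lowest for 9 (13.7% of all genes tested), PSAT1, SHMT2 and MTHFD2 among them. PHGDH and MTHFD1L were lowest in SK-N-AS there. A link between ATF4 and the values of the members was not tested. On centred arrays CBS, which starts the route from homocysteine to cysteine, was low in SK-N-AS and CTH, which ends it, was high in KELLY (556 ± 17.7). No gene of these 3 lists separated the classes on either scale. Among all genes tested, 0.684% did so upward and 0.346% downward on the deposited scale, and 0.558% each way on centred arrays.

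Neighbours of the called members were counted in the RefSeq gene order. On the deposited scale 3.95% of all genes tested marked SH-SY5Y as low and 3.46% marked BE(2)-C as high. On centred arrays 5.56% marked SK-N-AS as low. Among the 5 tested genes on each side of ADSL on chromosome 22, 5 of 10 also marked SH-SY5Y as low on the deposited scale. They were MIEF1, ATF4, TNRC6B, SLC25A17 and ST13. On centred arrays the median of the 10 neighbours was -0.71 for SH-SY5Y against the other lines, beside -1.0 for ADSL. For MTHFD1L on chromosome 6, 2 of 10 neighbours (ULBP1 and AKAP12) marked SK-N-AS as low on centred arrays, with a median of -1.06 for the neighbours and -2.21 for MTHFD1L. For PHGDH and PFAS 0 of 10 neighbours did, with medians of 0.10 and -0.40. Around PSAT1, 1 of 10 neighbours marked SH-SY5Y as low (PRUNE2) and 2 marked BE(2)-C as high (TLE1 and RASEF) on the deposited scale. SHMT2 had 1 such neighbour (INHBE), IMPDH1 had 2 (PRRT4 and OPN1SW) and MTHFD2 had none. Copy number was not measured here, and the part of the segment around ADSL in its value was not tested.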

How the data were processed

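The authors deposited linear intensities for every probe set of each array. Per the submitters' processing notes they came from MAS5, with version, background step and scaling not stated. Per the labels' protocols, 100 ng of total RNA was labelled by a 3' in vitro transcription kit.

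Each gene was read from its brightest probe set by mean intensity, and probe sets naming several genes were not used. Genes entered the test if the mean of some line reached the overall median intensity of 80.6. The test was limma (version 3.58.1, R 4.3.3) on log2(intensity + 1), with 1 mean per line, an intensity trend and Benjamini-Hochberg adjustment over all 12721 genes. A gene separates the classes when all 6 contrasts, and marks a line when all 4, pass an adjusted p of 0.05 and a log2 difference of 1 in the same direction. Centred values subtract each array's median over the tested genes. Probe sets whose names hold _s or _x can match related transcripts. Those used for MTHFD1L, PSAT1, SHMT2, PFAS, PPAT, PAICS, GMPS, UMPS, RRM1, RRM2, DTYMK and PSPH are of this kind.

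The members, lists and rules were chosen with earlier results of these data known. Array values are given for members that separate the classes or mark a line on either scale and, in branches without any, the 2 with the widest range. Those of PPAT, PAICS and TYMS were added after their values were seen, as was the rule on arrays that do not overlap. Of other pathway genes, at most 4 per list are named with values. RefSeq promoters (GRCh38.p14) matched 25 of 30 members. The scripts were tested on simulated data. Replicate numbers were not used to pair the arrays in the main fits. Over 30 pairs of lines and numbers the correlation of deviations ran from -0.23 to 0.23, and 5 exceeded 0.1. Pairs of unlike number were not set beside these, so whether arrays of like number share a batch was not tested.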

Additional observations from a re-analysis of the deposited data

How the results depend on the processing

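The number of arrays and lines limits these results: 3 arrays per line share a line, and 5 lines give 3 against 2. The scale decided most calls by line. Of members separating the classes upward, 2 on the deposited scale became 0 on centred arrays, 0 after quantile normalization, 1 when all probe sets of a gene were averaged, 1 without _s and _x probe sets (24 members tested) and 6 without SK-N-AS (ADSL, PHGDH, PSAT1, SHMT2, MTHFD1L and MTHFD2). Leaving out any 1 array gave 2 each time. Members whose amplified arrays all lay above the others were 4 on the deposited scale (4 to 5 without any 1 array), 13 centred, 11 after quantile normalization, 2 with the mean of probe sets, 2 without _s and _x probe sets, 20 without SK-N-AS and 7 without KELLY. Below the others were 0, then 1 centred, 1 after quantile normalization, 6 without SH-SY5Y and 2 without BE(2)-C. On centred arrays the 13 became 8 without _s and _x probe sets (PPAT and PAICS have none left) and 13 to 14 without any 1 array. The 1 below, RRM1, became 2 without SK-N-AS, 2 without NGP, 3 without BE(2)-C and 2 without KELLY.

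Members marking SK-N-AS as low were 0, and 3 both centred and after quantile normalization. Those marking SH-SY5Y as low were 4 (3 to 6 without any 1 array), and 0 both centred and after quantile normalization, where the smallest difference of PSAT1 turned to 0.014 from -1.05. Besides, ADSL was lost from these with the mean of probe sets (-0.75) and PSAT1 with equal ERCC medians (-0.98) and without replicate 1 of SH-SY5Y (-0.995). Those marking NGP as low were 0, and 1 (TYMS) with equal ERCC medians and 1 with the mean of probe sets. Those marking BE(2)-C as high were 2 (1 to 2 without any 1 array, with PSAT1 alone left without replicate 1 of BE(2)-C), 0 centred, 0 after quantile normalization, 1 with equal ERCC medians and 1 with the mean of probe sets. A fit with the replicate number as a replicate block kept every count, at 2 separating and at 4 and 2 marking. The median class difference of the members was 0.49 (0.46 to 0.51 without any 1 array), 0.39 with equal ERCC medians, 0.39 with the mean of probe sets, 1.04 without SK-N-AS, -0.24 without SH-SY5Y, 0.21 without BE(2)-C and 0.61 without KELLY. The causes of these shifts were not tested. With line means as replicates 0 members passed under each of the 7 other settings and without any 1 array.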
